A study of Homo sapiens with 12 samples.

Results

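The genes described here are 10 human genes that the transcription factor NF-kB is known to switch on. They are the chemokine genes CXCL1, CXCL2, CXCL3, CXCL5, CXCL8 and CCL20, the cytokine gene IL6, the prostaglandin synthase gene PTGS2, and TNFAIP3 and NFKBIA, which encode inhibitors of the pathway. They were chosen by name, with earlier results of these data known, and measured by the probe sets that the platform annotation assigns to each gene alone. All 10 were found, among 14057 genes tested and 19775 genes with a probe set of their own. The annotation gave them 18 probe sets, 16 of which passed the filter on dim probe sets, and 0 were shared with another gene. The main probe set of each gene was the one of highest mean over all arrays.

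The study used 12 Affymetrix expression arrays on 2 human carcinoma lines, SW780 from bladder, kept in Leibovitz's L-15, and A549 from lung, kept in RPMI1640. Both media held 10% fetal bovine serum with antibiotic and antimycotic. The groups were SW780 with siKDM3A, SW780 with siFFluc, SW780 with siEGFP, A549 with siKDM3A, A549 with siFFluc and A549 with siEGFP, with 2 arrays each. siKDM3A is a small interfering RNA against KDM3A, a histone demethylase that removes methyl groups from H3K9, and siFFluc and siEGFP are control siRNAs. All cells, controls included, had received duplex RNA at 100 nM with lipofectamine 2000, and RNA was taken at 24 h. Arrays of untransfected cells were not analysed here. Each line is a single cell line, and whether replicates came from different cultures is not stated in the labels. The p-values therefore cover only how far these arrays differ from each other, and that may be technical variation.

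KDM3A itself had a signal of 209.9 ± 18.5 with siKDM3A and 394 ± 33.6 with control siRNA in SW780, a change of -0.86 ± 0.10. In A549 it was 702 ± 14.1 with siKDM3A and 1391 ± 106 with control siRNA, a change of -0.97 ± 0.10 (SD over 2 and 4 arrays in each line). Median signals of whole arrays lay between 50.3 and 59.1. In A549 they were 53.1 and 51.9 on the siKDM3A arrays and 57.4 to 59.1 on the controls, and in SW780 they were 58.1 and 54.3 against 50.3 to 54.2. The 5 epithelial markers had signals of at least 882 on every array of both lines. In SW780 the urothelial genes GATA3, UPK1B and UPK1A were at 10803 or more, 7237 or more and 1568 or more, whereas UPK3A did not exceed 9.3. In A549 the lung genes SFTPB, NAPSA and SFTPC gave 92.1 to 211, 45.9 to 121 and 17.4 to 67.8, and NKX2-1 and SCGB1A1 did not exceed 26 and 5.8, so 2 of the 5 lung markers were near 0 in the line labelled as lung. In SW780 SFTPB, NAPSA and SFTPC gave 117 to 165, 9.2 to 65.7 and 36.5 to 148, ranges that overlap those of A549, and NKX2-1 reached 93.8. The urothelial genes GATA3, UPK1B and PPARG gave 303 to 422, 663 to 791 and 2152 to 2785 in A549. The leukocyte gene PTPRC did not exceed 24 in SW780 and 19.5 in A549. The summed signal of 6 leukocyte markers was 224 to 255 on siKDM3A arrays and 289 to 371 on control arrays in A549, with 1 of the 6 above 100 on any array of either kind.

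NF-kB is a family of dimeric transcription factors held in the cytoplasm by IkB proteins. Cytokine receptors and pattern receptors activate the IKK kinases, which mark IkB for degradation and free NF-kB to enter the nucleus. The CXC chemokines encoded by CXCL1, CXCL2, CXCL3, CXCL5 and CXCL8 attract neutrophils through the receptors CXCR1 and CXCR2, and carcinoma cells of lung and bladder are known to secrete them. CCL20 attracts lymphocytes and dendritic cells through CCR6. IL6 signals through IL6ST, JAK kinases and STAT3, and PTGS2, also called COX-2, makes the precursor of prostaglandin E2. NFKBIA encodes IkB alpha and TNFAIP3 the ubiquitin-editing enzyme A20, and both end NF-kB signalling in a negative feedback.

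The promoters are shown first, because most but not all members hold an NF-kB motif there. The sequences are the 100 bases before the annotated transcription start, 5′ to 3′ on the gene's strand, from RefSeq promoters of GRCh38.p14, and all 10 genes matched that table. Capitals mark matches to either of 2 motifs, GGNNTTTCC with N for any base and GGAATTTCC, which is one form of the other. They are short forms of the NF-kB site, searched on both strands and chosen with these promoters in view. The CXC chemokine genes lie on chromosome 4.
CXCL1 (chr4:73869293-73869392, plus strand): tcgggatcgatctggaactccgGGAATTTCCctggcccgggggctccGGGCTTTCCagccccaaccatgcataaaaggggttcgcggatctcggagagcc
CXCL2 (chr4:74099196-74099295, minus strand): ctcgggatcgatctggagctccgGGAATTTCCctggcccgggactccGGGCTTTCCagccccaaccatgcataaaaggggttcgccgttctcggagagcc
CXCL3 (chr4:74038690-74038789, minus strand): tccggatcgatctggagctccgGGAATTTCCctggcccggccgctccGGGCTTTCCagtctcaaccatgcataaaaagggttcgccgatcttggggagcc
CXCL5 (chr4:73998678-73998777, minus strand): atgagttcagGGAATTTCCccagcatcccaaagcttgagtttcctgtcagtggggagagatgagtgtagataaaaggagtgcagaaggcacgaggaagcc
CXCL8 (chr4:73740469-73740568, plus strand): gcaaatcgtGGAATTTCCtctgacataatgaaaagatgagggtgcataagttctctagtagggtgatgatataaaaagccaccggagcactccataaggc
The first 3 of these promoters were more alike than the others. Aligned without gaps, CXCL1 and CXCL3 had 90 of 100 bases identical, CXCL1 and CXCL2 had 73, and CXCL2 and CXCL3 had 67, while pairs with CXCL5 or CXCL8 had 23 to 33.

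The next set shows the cytokine gene, the enzyme gene without a match, and an inhibitor gene whose match lies on the other strand.
IL6 (chr7:22727100-22727199, plus strand): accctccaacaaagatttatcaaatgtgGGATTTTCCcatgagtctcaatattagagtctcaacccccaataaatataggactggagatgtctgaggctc
PTGS2 (chr1:186680424-186680523, minus strand): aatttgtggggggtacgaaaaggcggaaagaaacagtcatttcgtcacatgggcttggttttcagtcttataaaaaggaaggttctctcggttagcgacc
NFKBIA (chr14:35404750-35404849, minus strand): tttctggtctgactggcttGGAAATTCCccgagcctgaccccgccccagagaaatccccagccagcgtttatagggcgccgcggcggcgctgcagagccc
The motif GGNNTTTCC was in 9 of the 10 promoters and in 2198 of the 35116 promoters of the RefSeq table (6.26%), each searched over its whole entry, from 250 bases before to 50 after the start. GGAATTTCC was in 6 of the 10 and in 162 of all (0.461%). CXCL1, CXCL2 and CXCL3 each had 2 matches, the nearer one beginning 53 bases before the start. TNFAIP3 had 2 and CCL20 had 1, all on the strand opposite the gene, and NFKBIA had 1 more match, outside the bases shown. PTGS2 had no match in its whole entry, which says only that these letters are not there. A match is a description of sequence, and binding was not measured here.

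**Figure D1:**
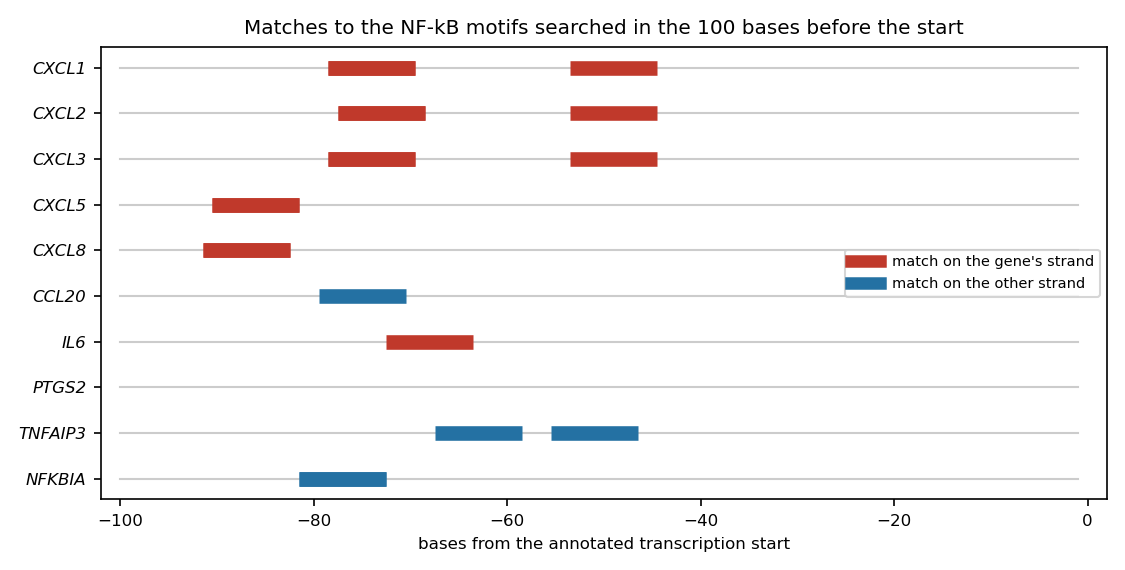
Positions of motif matches in the 100 bases before the transcription start of each gene, in bases from the start (horizontal axis), red on the gene's strand and blue on the other. All genes but PTGS2 hold a match, between 91 and 45 bases before the start.

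The level of these genes differed strongly between the lines. Of the 10 genes, 8 were lower and 1 was higher in SW780 than in A549 control arrays, beside 38.5% and 29.9% of all genes tested (68.4% in either direction). Changes are differences of log2(signal + 16) with their SE, and were called at an adjusted p under 0.05, so they understate the change of dim probe sets. CXCL5 gave 0.9 to 29.2 on the 6 SW780 arrays and 12739 to 19849.9 on the 6 A549 arrays. The difference between control arrays was called (adjusted p = 6.29e-14), but with signals so near 0 the pseudocount sets its size, which was -9.20 with 16, -7.85 with 64 and -10.50 with 1. CXCL2 gave 2.3 to 55.5 in SW780 and 4921 to 10221 in A549 (adjusted p = 1.17e-11), with a difference of -7.89, -6.67 and -8.79 with those pseudocounts. These chemokine transcripts were thus at or near the dim end of the array in SW780 and bright in A549. All 6 SW780 signals of CXCL5 and of CCL20, 5 of 6 of CXCL2 and 1 of 6 of CXCL3 lay below the level of 29.6 that served as the filter on mean signal. CXCL2, CXCL5 and CCL20 thus passed the filter through their A549 signals. They are part of the count of 8, and their calls between lines are not independent of that filter.

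CXCL3 gave 28.5 to 53.3 in SW780 and 1478 to 3844 in A549 (-5.75 ± 0.11, adjusted p = 6.90e-14). CXCL1 was measurable in both lines, at 136 to 262 in SW780 and 3719 to 6477 in A549 (-4.72 ± 0.14, adjusted p = 4.40e-12). CCL20 gave 2.3 to 13.4 in SW780 and 234 to 426 in A549 (adjusted p = 3.50e-09), again with a size set by the pseudocount, at -3.96, -2.47 and -5.69. IL6 gave 97.1 to 194.5 in SW780 and 452 to 1113 in A549 (-2.69 ± 0.12, adjusted p = 2.46e-10).

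CXCL8 was bright in both lines, at 2532 to 4411 in SW780 and 4310.2 to 14893 in A549, with a difference between control arrays of -1.48 ± 0.08 (adjusted p = 2.70e-09). SW780 siEGFP replicate 1 lay above both A549 siKDM3A arrays. PTGS2 was the one gene that was higher in SW780, where the control mean was 6167 ± 652 against 4643 ± 1355 in A549 (0.45 ± 0.10, adjusted p = 8.86e-04). TNFAIP3 averaged 1420.2 ± 134 in SW780 controls and 1636 ± 328 in A549 controls (-0.19 ± 0.07, adjusted p = 0.0259). That call ended under quantile normalization (adjusted p = 0.0752), under median scaling (adjusted p = 0.710), and without SW780 siFFluc replicate 1, SW780 siEGFP replicate 1, A549 siFFluc replicate 1 or A549 siEGFP replicate 1 (adjusted p = 0.0768 to 0.0792). NFKBIA was not called, at 4882 ± 757 in SW780 and 5208 ± 638 in A549 (-0.10 ± 0.06, adjusted p = 0.165, 95% interval -0.23 to 0.03).

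**Figure D2:**
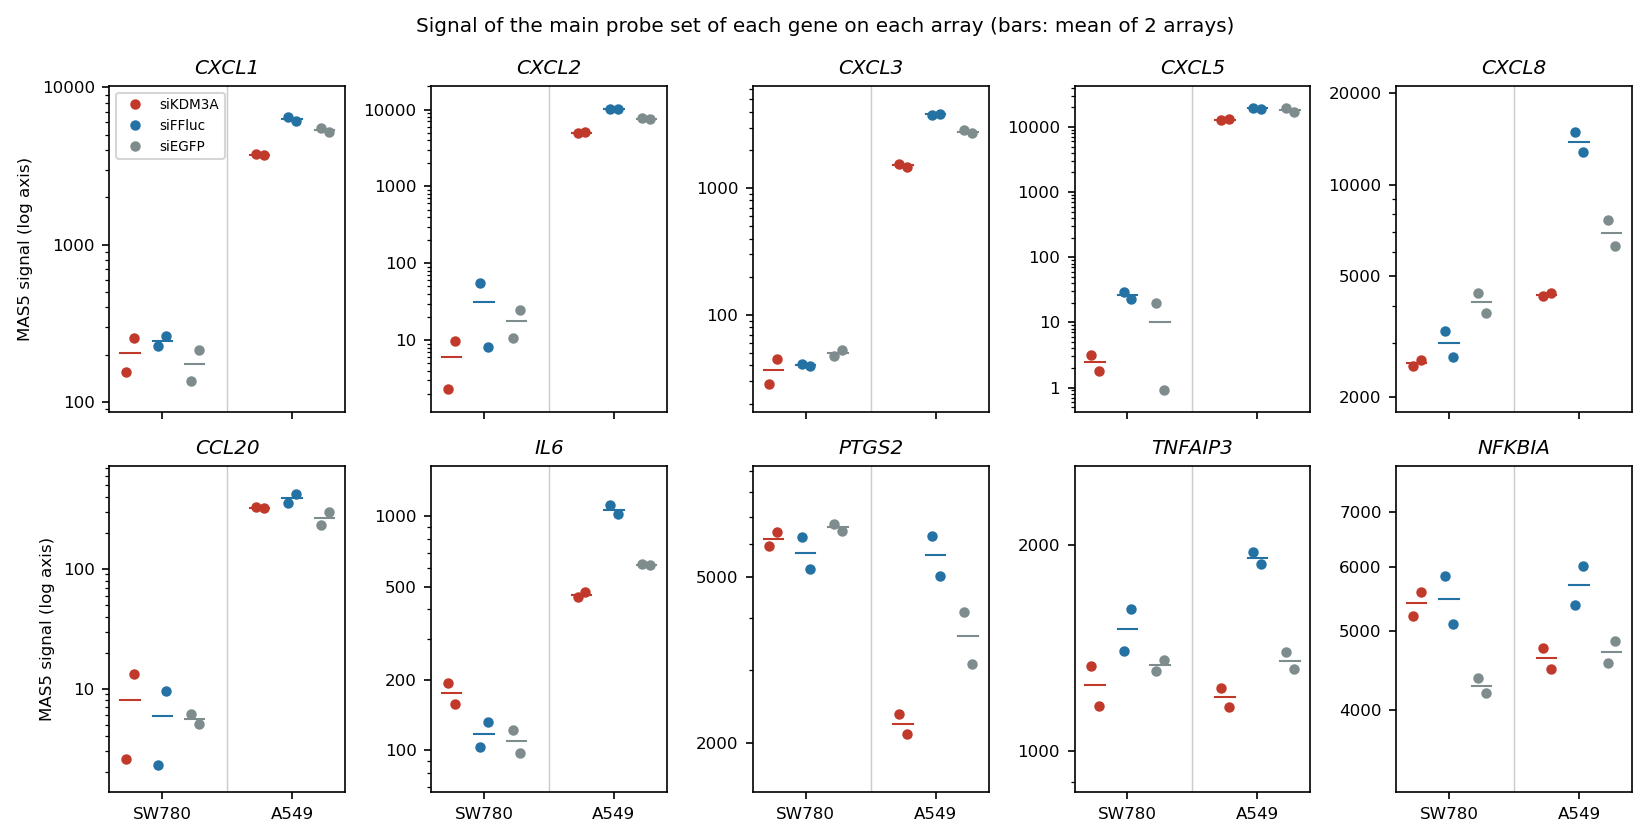
MAS5 signal of each gene's main probe set on each array (vertical log axis, with its own range in each panel), for siKDM3A, siFFluc and siEGFP in SW780 and A549, with points for arrays and bars for the mean of 2 arrays. CXCL1, CXCL2, CXCL3, CXCL5, CCL20 and IL6 are far lower in SW780, and in A549 the siKDM3A arrays lie below all control arrays for 8 of the 10 genes.

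In A549, most of these genes were lower with siKDM3A. Against the average of the control siRNAs, 6 of the 10 fell (CXCL1, CXCL3, CXCL8, IL6, PTGS2 and TNFAIP3) and 0 rose, where 6.37% of all genes fell and 5.33% rose. No member was higher even at an unadjusted p under 0.05, and 9 were lower at that level, by limma's test. The median change of the 10 was -0.72, against -0.02 over all genes. On 8 of the 10 both siKDM3A arrays lay below all 4 control arrays, which held for 19.9% of all genes, and 0 lay above all of them, beside 17.0%. Fewer cells that express a gene and less RNA per cell cannot be told apart in such bulk samples, and the lower array medians and the lower summed leukocyte signal given above moved with the same contrast. The summed signal of 7 fibroblast markers was also lower, at 902 to 983 with siKDM3A and 1205 to 1305 with controls, and the part of these markers in the result was not tested. Only 3 leukocyte and 3 fibroblast markers passed the filter, and 0 of them were called in A549. Scaling every array to a common median left 5 of the 10 genes called. It moved the median change of all genes to 0.12, and the split of calls over all genes to 2216 higher and 415 lower, beside 749 and 896 without it.

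CXCL8 encodes a neutrophil chemoattractant. Its signals were 4310.2 and 4386 with siKDM3A, 14893 and 12828 with siFFluc, and 7637 and 6264.6 with siEGFP. The siKDM3A arrays were close together and below every control, and the control siRNAs were themselves well apart. CXCL8 fell by 1.17 ± 0.10 (adjusted p = 1.68e-05), to 41.8% of the control mean. It fell by 1.66 ± 0.12 against siFFluc alone (adjusted p = 2.46e-06) and by 0.67 ± 0.12 against siEGFP alone (adjusted p = 0.00357).

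CXCL3 gave 1556 and 1478 with siKDM3A, 3806.5 and 3844 with siFFluc, and 2874 and 2707 with siEGFP. The 3 groups did not overlap, with siKDM3A lowest. CXCL3 fell by 1.10 ± 0.13 (adjusted p = 2.12e-04), by 1.33 ± 0.15 against siFFluc alone (adjusted p = 1.39e-04) and by 0.87 ± 0.15 against siEGFP alone (adjusted p = 0.00368). The call against siEGFP alone ended without A549 siKDM3A replicate 2 (adjusted p = 0.0534).

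CXCL1 gave 3749.7 and 3719 with siKDM3A, 6477 and 6107 with siFFluc, and 5505 and 5218 with siEGFP, again without overlap. It fell by 0.63 ± 0.17 (adjusted p = 0.0313), a call close to the threshold. Leaving out any 1 of the 6 A549 arrays ended it (adjusted p = 0.0635 to 0.187), as did median scaling (adjusted p = 0.0721) and a pseudocount of 1 (adjusted p = 0.0503). Against siFFluc alone it fell by 0.75 ± 0.20 (adjusted p = 0.0310) and lost that call without either A549 siFFluc or either A549 siKDM3A array (adjusted p = 0.117 to 0.162), under median scaling (adjusted p = 0.0645) and with a pseudocount of 1 (adjusted p = 0.0512). Against siEGFP alone the change of -0.52 ± 0.20 was not called (adjusted p = 0.140).

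CXCL2 and CXCL5 were not called by the fit over both lines although their A549 arrays separated. CXCL2 gave 4921 and 5057 with siKDM3A, 10221 and 10091 with siFFluc, and 7799.8 and 7433 with siEGFP (-0.82 ± 0.32, adjusted p = 0.118). CXCL5 gave 12739 and 13140.3 with siKDM3A, 19598 and 19076.5 with siFFluc, and 19849.9 and 16736 with siEGFP (-0.54 ± 0.21, adjusted p = 0.123). Both genes lay below all controls on both siKDM3A arrays. The fit shares its estimate of spread with SW780, where these probe sets gave signals near 0, and with the A549 arrays alone both were called lower (adjusted p = 1.50e-05 for CXCL2 and 9.38e-04 for CXCL5). Leaving out SW780 siFFluc replicate 1 or 2 also called CXCL2 (adjusted p = 0.00599 and 0.00569), and leaving out SW780 siEGFP replicate 1 or 2 also called CXCL5 (adjusted p = 0.00649 and 0.00605). The probe sets of CXCL2, CXCL5 and CXCL8 end in _x_at, which in the maker's naming marks probes that can match other transcripts, and CXCL1, CXCL2 and CXCL3 are close paralogs, so some shared signal among these chemokines cannot be separated here.

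CCL20, the only CC chemokine of the list, did not separate. It gave 329.7 and 320.1 with siKDM3A, 352 and 426 with siFFluc, and 234 and 299 with siEGFP. The siKDM3A arrays lay between those of the control siRNAs, and the change was 0.02 ± 0.28 (adjusted p = 0.979, 95% interval -0.59 to 0.62).

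IL6 gave 452 and 473 with siKDM3A, 1113 and 1026 with siFFluc, and 626 and 616.5 with siEGFP, without overlap. It fell by 0.80 ± 0.15 (adjusted p = 0.00367). That call ended without A549 siKDM3A replicate 1 (adjusted p = 0.0549). Against siFFluc alone it fell by 1.18 ± 0.17 (adjusted p = 6.78e-04), while the change against siEGFP alone was -0.41 ± 0.17 and was not called (adjusted p = 0.167).

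PTGS2 gave 2356 and 2099 with siKDM3A, 6289 and 5053 with siFFluc, and 4126 and 3105 with siEGFP. The siKDM3A arrays were the lowest, and the spread within each control pair was wide. PTGS2 fell by 1.01 ± 0.12 (adjusted p = 1.43e-04), by 1.34 ± 0.13 against siFFluc alone (adjusted p = 4.16e-05) and by 0.68 ± 0.13 against siEGFP alone (adjusted p = 0.00760). The last call ended without A549 siKDM3A replicate 2 (adjusted p = 0.0906) or A549 siEGFP replicate 1 (adjusted p = 0.0793).

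Of the inhibitor genes, TNFAIP3 was called and NFKBIA was not. TNFAIP3 gave 1235 and 1158 with siKDM3A, 1958 and 1876 with siFFluc, and 1396 and 1315 with siEGFP. It fell by 0.43 ± 0.08 (adjusted p = 0.00541), a call that ended without A549 siKDM3A replicate 2 (adjusted p = 0.0917). Against siFFluc alone it fell too (-0.67 ± 0.10, adjusted p = 6.43e-04), and the change against siEGFP alone was -0.18 ± 0.10 (adjusted p = 0.308). NFKBIA gave 4767 and 4488 with siKDM3A, 5381 and 6019 with siFFluc, and 4563 and 4867 with siEGFP. Its siKDM3A arrays overlapped those of siEGFP, and the change of -0.16 ± 0.07 was not called (adjusted p = 0.183), though quantile normalization called it lower (adjusted p = 0.0423). Against siFFluc alone it fell by 0.30 ± 0.08 (adjusted p = 0.0421), and that call was kept in 7 of the 20 alternatives run. It ended without any 1 of the A549, SW780 siEGFP or SW780 siKDM3A arrays. Median scaling (adjusted p = 0.445) was among the other alternatives that ended it.

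The count in A549 therefore depended on the control siRNA. Against siFFluc alone 7 of the 10 genes fell, beside 5.58% of all genes that fell and 4.45% that rose, and against siEGFP alone 3 fell (CXCL3, CXCL8 and PTGS2), beside 4.32% that fell and 3.74% that rose. No member rose in either comparison, by limma's test, also at an unadjusted p under 0.05, where 9 and 5 members were lower. The comparisons share the siKDM3A arrays. The count of 3 was 1 without A549 siKDM3A replicate 2, and it was 7 with the A549 arrays alone and 5 with a pseudocount of 64.

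**Figure D3:**
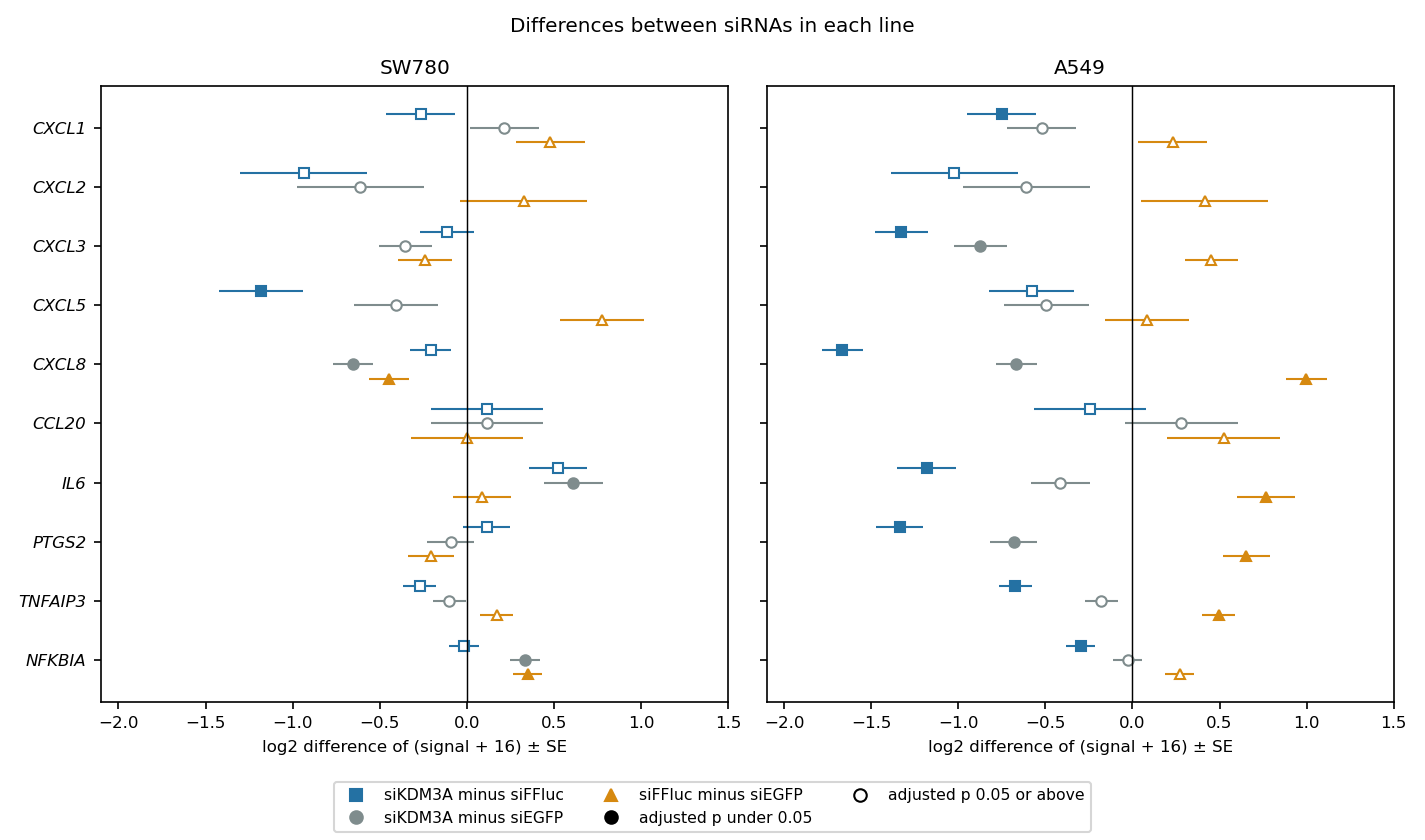
Difference of log2(signal + 16) ± SE (horizontal axis) for each gene between siKDM3A and siFFluc, siKDM3A and siEGFP, and siFFluc and siEGFP, in SW780 and A549, with filled symbols at an adjusted p under 0.05. In A549 the changes of CXCL8, IL6, PTGS2 and TNFAIP3 with siKDM3A are larger against siFFluc than against siEGFP, and siFFluc lies above siEGFP for all 10 genes. CXCL5 lay below the dim limit on every SW780 array.

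In SW780, siKDM3A gave a mixed picture. Against the average of the controls, CXCL8 fell and IL6 rose. The test also called CXCL5 lower, but that gene passed the filter through its A549 signals alone and lay below the dim limit on all 6 SW780 arrays, so no fall is read from it. With CXCL5 the test called 2 lower, beside 6.18% of all genes, and 1 higher, beside 5.73%. The median change was -0.11, against 0.03 over all genes. The siKDM3A arrays lay below all controls for CXCL8 alone, beside 13.3% of all genes, and above all controls for IL6 alone, beside 15.4%. The count of 3 calls was 0 without SW780 siKDM3A replicate 1, 1 without SW780 siKDM3A replicate 2, and 1 with the SW780 arrays alone.

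CXCL8 gave 2532 and 2649 with siKDM3A, 3305 and 2706.5 with siFFluc, and 4411 and 3778 with siEGFP. The lower siFFluc array lay just above the siKDM3A arrays. CXCL8 fell by 0.43 ± 0.10 (adjusted p = 0.0161), to 73% of the control mean. It lost the call when SW780 siKDM3A replicate 1 or 2 was left out (adjusted p = 0.129 and 0.0805), or SW780 siEGFP replicate 1 (adjusted p = 0.0547). It fell by 0.65 ± 0.12 against siEGFP alone (adjusted p = 0.00612, and 0.0764 without SW780 siEGFP replicate 1 or 0.0570 without SW780 siKDM3A replicate 1), and the change against siFFluc alone was -0.21 ± 0.12 (adjusted p = 0.280).

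IL6 went the other way. It gave 194.5 and 157.5 with siKDM3A, 103.5 and 132 with siFFluc, and 122 and 97.1 with siEGFP. Both siKDM3A arrays lay above all controls, with a mean of 176 ± 26.2 (n = 2) against 114 ± 16.2 (n = 4), and IL6 rose by 0.57 ± 0.15 (adjusted p = 0.0240). The rise was no longer called with SW780 siKDM3A replicate 1 left out (adjusted p = 0.213), without SW780 siEGFP replicate 2 (adjusted p = 0.0637), with the SW780 arrays alone (adjusted p = 0.179) and under median scaling (adjusted p = 0.0524). Against siEGFP alone it was 0.61 ± 0.17 (adjusted p = 0.0497, and 0.0669 to 0.264 without any 1 array other than those of SW780 siFFluc, and 0.0590 to 0.273 under median scaling, a pseudocount of 64, no filter, the replicate block and the SW780 arrays alone) and against siFFluc alone 0.52 ± 0.17 (adjusted p = 0.0565).

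PTGS2 gave 5956 and 6433 with siKDM3A, 6247 and 5231 with siFFluc, and 6707 and 6481.5 with siEGFP. The groups overlapped, and the change was 0.01 ± 0.12 (adjusted p = 0.966, 95% interval -0.24 to 0.26). TNFAIP3 gave 1329 and 1163 with siKDM3A, 1402 and 1613 with siFFluc, and 1309 and 1357 with siEGFP (-0.19 ± 0.08, adjusted p = 0.177), and median scaling called it lower (adjusted p = 0.0316). NFKBIA gave 5224 and 5589 with siKDM3A, 5852 and 5106 with siFFluc, and 4377 and 4194 with siEGFP (0.16 ± 0.07, adjusted p = 0.192). For NFKBIA the siEGFP arrays stood apart as the lowest, and it rose by 0.33 ± 0.08 against siEGFP alone (adjusted p = 0.0344). That call ended without either siKDM3A replicate of A549 or any of the SW780 siKDM3A and siEGFP arrays (adjusted p = 0.0577 to 0.184), under median scaling (0.238), with the mean of its kept probe sets (0.286) and with the SW780 arrays alone (0.103).

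CXCL2, CXCL5 and CCL20 were too dim in SW780 for a reading of their change. CXCL5 gave 3.2 and 1.8 with siKDM3A, 29.2 and 22.9 with siFFluc, and 19.5 and 0.9 with siEGFP. Its difference of -0.79 ± 0.21 passed the test (adjusted p = 0.0274), but every one of these signals lay below the dim limit of 29.6. The call ended with pseudocounts of 64 or 1 (adjusted p = 0.0786 and 0.0760), with the SW780 arrays alone (adjusted p = 0.413), with the mean of its kept probe sets (adjusted p = 0.466), and without SW780 siFFluc replicate 1 (adjusted p = 0.0531) or SW780 siKDM3A replicate 1 or 2 (adjusted p = 0.114 and 0.164). CXCL2 gave 2.3 and 9.7 with siKDM3A, 55.5 and 8.1 with siFFluc, and 10.8 and 24.9 with siEGFP (-0.77 ± 0.32, adjusted p = 0.143), with a call without SW780 siFFluc replicate 2 (adjusted p = 0.00106). CXCL3 gave 28.5 and 44.9 with siKDM3A, 41.2 and 39.4 with siFFluc, and 47.7 and 53.3 with siEGFP (-0.23 ± 0.13, adjusted p = 0.304). CXCL1, above the dim limit on every array, gave 156 and 257 with siKDM3A, 228 and 262 with siFFluc, and 136 and 213 with siEGFP (-0.03 ± 0.17, adjusted p = 0.950, 95% interval -0.40 to 0.35). CCL20 gave 2.6 and 13.4 with siKDM3A, 2.3 and 9.5 with siFFluc, and 6.1 and 5.1 with siEGFP (0.11 ± 0.28, adjusted p = 0.852).

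Counted against each control in SW780, 1 of the 10 genes fell (CXCL8, beside 3.32% of all genes) and 2 rose (IL6 and NFKBIA, beside 3.04%) relative to siEGFP, which called 6.36% of all genes in either direction. Relative to siFFluc the test called 1 lower, beside 7.28%. It was CXCL5, below the dim limit on every SW780 array, so no fall is read there either, and the call ended with the mean of its kept probe sets (adjusted p = 0.442) and with the SW780 arrays alone (adjusted p = 0.263). None of the 10 rose relative to siFFluc (0 called), beside 6.99% (14.3% in either direction), with 1 higher at an unadjusted p under 0.05 by limma's test. The count of 3 against siEGFP was 0 without SW780 siKDM3A replicate 1 or SW780 siEGFP replicate 1, and 1 without SW780 siKDM3A replicate 2 or either A549 siKDM3A replicate. The count of 1 against siFFluc was 2 without SW780 siFFluc replicate 1 and 3 without SW780 siFFluc replicate 2.

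The response to siKDM3A was then compared between lines, as the change in SW780 minus the change in A549. It was higher in SW780 for 4 of the 10 genes (CXCL3, CXCL8, IL6 and PTGS2) and lower for 0, beside 1.80% of all genes that were higher and 0.989% that were lower (2.79% in either direction), and 0 were lower at an unadjusted p under 0.05 by limma's test. IL6 differed by 1.36 ± 0.21 (adjusted p = 0.00691), between a rise of 0.57 in SW780 and a change of -0.80 in A549, and it was called with any 1 array left out. PTGS2 differed by 1.02 ± 0.16 (adjusted p = 0.00938), between 0.01 in SW780 and -1.01 in A549. CXCL8 differed by 0.74 ± 0.14 (adjusted p = 0.0246), between -0.43 in SW780 and -1.17 in A549. CXCL3 differed by 0.87 ± 0.19 (adjusted p = 0.0336), between -0.23 in SW780, where it was dim, and -1.10 in A549. Against siEGFP alone CXCL8 changed alike, by -0.65 in SW780 and -0.67 in A549, and against siFFluc alone by -0.21 and -1.66. Changes against siEGFP alone, SW780 first, were 0.61 and -0.41 for IL6, -0.09 and -0.68 for PTGS2, and -0.35 and -0.87 for CXCL3. The difference between lines was not tested against each control alone.

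The count of 4 was 1 without SW780 siKDM3A replicate 2 or A549 siKDM3A replicate 2, 2 without A549 siKDM3A replicate 1 or A549 siFFluc replicate 1, and 2 under median scaling, which moved the median difference of all genes to -0.21 from 0.04. PTGS2 was not called without A549 siKDM3A replicate 2 (adjusted p = 0.0755) or SW780 siKDM3A replicate 2 (adjusted p = 0.0608). CXCL8 was not called under median scaling (adjusted p = 0.0817) or without any 1 of the siKDM3A arrays of either line or A549 siFFluc replicate 1 (adjusted p = 0.0578 to 0.116). CXCL3 was not called without any 1 of the A549 arrays, SW780 siEGFP replicate 1 or SW780 siKDM3A replicate 2 (adjusted p = 0.0612 to 0.177), nor under quantile normalization, median scaling, a pseudocount of 1 or no filter (adjusted p = 0.0510 to 0.0995).

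The control siRNAs did not give the same level of these genes in A549. With siFFluc, 4 of the 10 were higher than with siEGFP (CXCL8, IL6, PTGS2 and TNFAIP3), where 1.43% of all genes were higher. Called lower were 0, where 1.49% of all genes were lower (2.92% in either direction). At an unadjusted p under 0.05 by limma's test 0 were lower too. Without arrays of untransfected cells, a rise with siFFluc and a fall with siEGFP cannot be told apart. All 10 differences were positive, with a median of 0.47 against 0.01 over all genes. Both siFFluc arrays lay above both siEGFP arrays for 9 of the 10, beside 24.3% of all genes, with CXCL5 as the exception. CXCL8 was higher with siFFluc by 1.00 ± 0.12 (adjusted p = 2.75e-04), IL6 by 0.77 ± 0.17 (adjusted p = 0.0263), PTGS2 by 0.65 ± 0.13 (adjusted p = 0.0186) and TNFAIP3 by 0.50 ± 0.10 (adjusted p = 0.0117). The siKDM3A mean lay below the siEGFP mean, and the siEGFP mean below the siFFluc mean, for 9 of the 10 genes, and the exception was CCL20, with siEGFP lowest. The count of 4 was 1 without A549 siEGFP replicate 2 or the first A549 siFFluc array and 2 without A549 siFFluc replicate 2, and CXCL8 was called in each of these. The IL6 call was kept in 15 of the 20 alternatives run. Among those that ended it was leaving out A549 siEGFP replicate 2 or either A549 siFFluc array. The PTGS2 call ended without A549 siEGFP replicate 2 or the first A549 siFFluc array. The TNFAIP3 call ended without either A549 siFFluc array or A549 siEGFP replicate 2.

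In SW780 the control siRNAs differed for 2 genes. CXCL8 was lower with siFFluc than with siEGFP (-0.45 ± 0.12, adjusted p = 0.0442), beside 2.65% of all genes, and NFKBIA was higher (0.35 ± 0.08, adjusted p = 0.0306), beside 3.07% (5.71% in either direction). The count of 2 was 0 under median scaling and with the SW780 arrays alone. It was also 0 without either A549 siKDM3A replicate or SW780 siEGFP replicate 2. It was 1 without either A549 siFFluc replicate, SW780 siEGFP replicate 1, SW780 siFFluc replicate 1 or either SW780 siKDM3A replicate. In the settings that ended them, the adjusted p was at most 0.256 for CXCL8 and 0.376 for NFKBIA. Both siFFluc arrays lay above both siEGFP arrays for 4 of the 10 genes, beside 23.6% of all. The siFFluc minus siEGFP difference itself was tested between lines, a comparison added after the data were seen. CXCL8 differed by -1.44 ± 0.17 (adjusted p = 0.0149), between -0.45 in SW780 and 1.00 in A549, and it was 1 of 3 genes lower in that test (0.0213% of all). The other two, chosen after their values were seen, were CCNE2, encoding cyclin E2 (-0.75 ± 0.09, adjusted p = 0.0217), and EREG, encoding the growth factor epiregulin (-0.83 ± 0.11, adjusted p = 0.0243). The CXCL8 call ended under median scaling (adjusted p = 0.0849) and without A549 siEGFP replicate 2, A549 siFFluc replicate 1, SW780 siEGFP replicate 1 or either A549 siKDM3A replicate (adjusted p = 0.0544 to 0.0841).

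Other probe sets of the same genes were tested with every kept probe set in the table, 27056 in all, an alternative chosen after the data were seen. For CXCL8 the other probe set gave 1583 and 1391 with siKDM3A in A549, 5307 and 5949.6 with siFFluc, and 2356 and 2491 with siEGFP, a fall by 1.31 ± 0.10 against the average of controls (adjusted p = 6.11e-06). In SW780 it gave 1138.5 and 984 with siKDM3A, 977 and 1245 with siFFluc, and 1832 and 1889.5 with siEGFP (-0.43 ± 0.10, adjusted p = 0.0190). Both CXCL8 probe sets therefore fell in both lines. In SW780 the siKDM3A arrays of the other probe set overlapped those of siFFluc, and the fall lay against siEGFP (-0.80 ± 0.12, adjusted p = 0.00186).

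The other PTGS2 probe set fell by 1.01 ± 0.08 in A549 (adjusted p = 1.21e-05), with 515 and 540.2 for siKDM3A, 1491 and 1494 for siFFluc, and 702 and 853 for siEGFP. In SW780 its change was -0.07 ± 0.08 (adjusted p = 0.707). The other TNFAIP3 probe set fell by 0.61 ± 0.11 in A549 (adjusted p = 0.00382), and its change in SW780 was -0.15 ± 0.11 (adjusted p = 0.455). These repeats had the direction of the main probe sets in A549. The other CXCL5 probe sets were not called, with differences of -0.40 ± 0.12 (adjusted p = 0.0578) and -0.68 ± 0.32 (adjusted p = 0.235) in A549, and of 0.03 ± 0.12 and 0.25 ± 0.32 in SW780 (adjusted p = 0.913 and 0.710), where the main CXCL5 probe set had been called lower at signals below the dim limit. The other NFKBIA probe set was dim, with signals of 16.2 to 57.3, and was called in neither line.

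**Figure D4:**
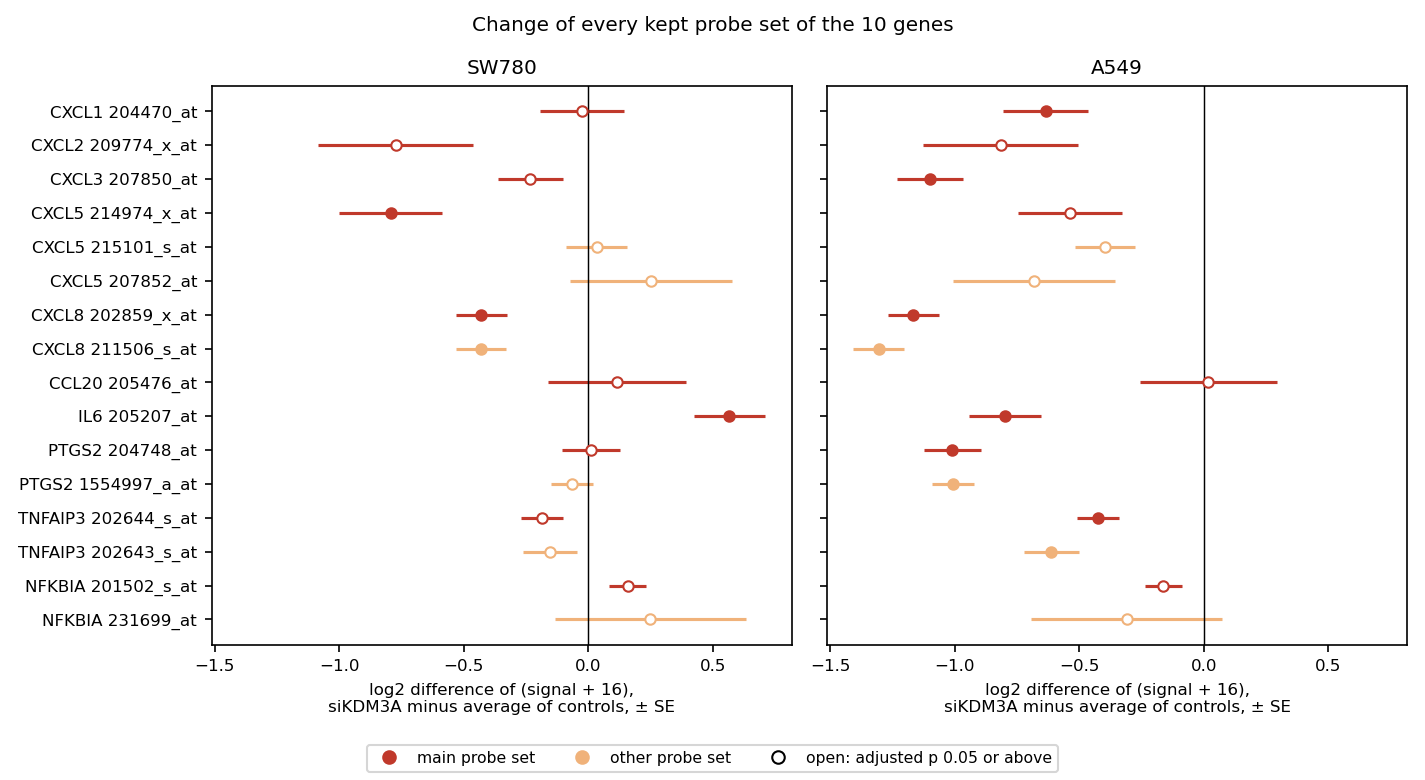
Difference of log2(signal + 16) between siKDM3A and the average of the controls, ± SE (horizontal axis), for each of the 16 kept probe sets in SW780 and A549, filled at an adjusted p under 0.05 in the test of all kept probe sets. The pairs for CXCL8, PTGS2 and TNFAIP3 lie together, and the 3 CXCL5 probe sets part in SW780.

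Genes around the pathway were counted from lists drawn up with earlier results of these data known. Each count stands beside the 6.37% of all genes that fell and 5.33% that rose in A549, and the 6.18% and 5.73% in SW780, and a share near these is no result about a list. These counts are against the average of the controls. Among the NF-kB subunits 2 of 5 fell in A549 and 0 rose. Against siEGFP alone 1 fell there, REL, beside 4.32% of all genes, while RELB was called against siFFluc only. REL had 611 and 604 with siKDM3A against 746 to 880 in controls (-0.46 ± 0.09, adjusted p = 0.00592), and RELB, which pairs with p52 in the noncanonical arm, had 310.2 and 306.5 against 420.1 to 530.0 in controls (-0.65 ± 0.14, adjusted p = 0.0102). RELA, the main activating subunit, was not called (0.14 ± 0.12, adjusted p = 0.507). The median of the list was -0.23 in A549 and -0.14 in SW780, where 0 of 5 were called and 2 were lower at an unadjusted p under 0.05 by limma's test.

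Of 8 further inhibitor and feedback genes tested, 1 fell in A549 and 1 rose in SW780, and it was the same gene. NFKBIZ, a nuclear IkB protein that helps NF-kB switch on IL6, had 1102.9 ± 115 with siKDM3A and 877 ± 49.8 with controls in SW780 (0.32 ± 0.08, adjusted p = 0.0175), and 1666 ± 8.56 against 2037 ± 283 in A549 (-0.28 ± 0.08, adjusted p = 0.0366). NFKBIZ was called against siFFluc in each line (-0.45 in A549 and 0.38 in SW780) and against siEGFP in neither. IL6 in SW780 changed by 0.61 ± 0.17 against siEGFP (adjusted p = 0.0497) and by 0.52 ± 0.17 against siFFluc (adjusted p = 0.0565). These changes were close, on either side of the threshold. A link between IL6 and NFKBIZ was not tested. Among 16 IKK and adaptor genes, 2 rose and 1 fell in A549. TAB3, an adaptor of the kinase MAP3K7, fell by 0.55 ± 0.08 (adjusted p = 4.80e-04), while the kinase gene IKBKB rose by 0.40 ± 0.10 (adjusted p = 0.0196) and the TNF receptor gene TNFRSF1A by 0.35 ± 0.08 (adjusted p = 0.0185). TAB3 was called against each control alone, IKBKB against siFFluc only and TNFRSF1A against siEGFP only. In SW780 TNFRSF1A fell by 0.44 ± 0.08 (adjusted p = 0.00502) and the kinase gene TBK1 rose by 0.34 ± 0.07 (adjusted p = 0.00490).

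Of 25 other NF-kB targets tested, 8 fell and 0 rose in A549, with a median of -0.27, and 1 was higher at an unadjusted p under 0.05 by limma's test. Against siFFluc alone 8 fell in A549, beside 5.58% of all genes, and against siEGFP alone 4, beside 4.32%. Of the genes named next, PLAU, PTX3 and C3 were called in A549 against each control, and IER3 against siFFluc only. The urokinase gene PLAU had 3088 and 3099.7 with siKDM3A against 6331 to 6748 in controls (-1.06 ± 0.09, adjusted p = 8.33e-06). PTX3, a soluble pattern receptor gene, changed by -0.93 ± 0.12 (adjusted p = 3.13e-04), the complement gene C3 by -0.60 ± 0.10 (adjusted p = 0.00168) and the stress gene IER3 by -0.38 ± 0.06 (adjusted p = 0.00140). In SW780 5 of the 25 were called lower and 3 higher. Among those called lower was CCL2, named after its values were seen, which was far dimmer in SW780 than in A549 control arrays (-5.78 ± 0.16). Its signals ran from 1.8 to 1865 over all arrays, so no fall is read from it in SW780. PLAU, C3 and PTX3 fell there too, by 0.96 ± 0.09 (adjusted p = 2.91e-05), 0.78 ± 0.10 (adjusted p = 3.61e-04) and 0.76 ± 0.12 (adjusted p = 0.00136). One gene called higher in SW780 was BCL2A1, an apoptosis inhibitor gene (adjusted p = 0.00214), with 32.3 and 28.2 with siKDM3A against 1.3 to 20.8 in controls. All its control signals and 1 of its siKDM3A signals lay below the dim limit, so no size is given. The others were CXCL10, a chemokine gene that interferon also switches on, and EFNA1 (2.45 ± 0.49 and 0.33 ± 0.09, adjusted p = 0.00610 and 0.0258), named after their values were seen, and CXCL10 had signals of 8.7 to 303 over all arrays. EFNA1 was called against siFFluc only.

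Of 6 receptor and STAT3 arm genes, 0 were called in A549, with 1 lower at an unadjusted p under 0.05 by limma's test. In SW780 the receptor subunit gene IL6ST fell by 0.33 ± 0.09 (adjusted p = 0.0328) and JAK1 by 0.39 ± 0.07 (adjusted p = 0.00391). With each control alone, both were called against siFFluc only. The receptor genes CXCR1, CXCR2 and CCR6 did not pass the filter, with signals of 2.4 to 65.7 over all arrays. Of 15 prostaglandin genes 2 fell in A549 and 0 rose. PTGES, which makes prostaglandin E2 from the product of PTGS2, had 3679.8 and 3235 with siKDM3A against 4927 to 5427 in controls (-0.61 ± 0.08, adjusted p = 4.13e-04), and the prostaglandin E2 receptor gene PTGER4 changed by -0.30 ± 0.06 (adjusted p = 0.00802). PTGES was called against each control alone, and PTGER4 against siFFluc only. In SW780 0 of the 15 were called, and 0 at an unadjusted p under 0.05, by limma's test.

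Many of these messages carry AU-rich elements that control their decay. Of 8 genes for proteins that bind such elements, 0 were called in either line, while at an unadjusted p under 0.05 by limma's test 3 were higher and 1 lower in A549 and 2 higher in SW780. Among 11 AP-1, C/EBP and EGR genes, EGR1 rose in both lines (0.45 ± 0.08 in SW780 and 0.44 ± 0.08 in A549, adjusted p = 0.00364 and 0.00343). FOSL2 fell in both (-0.24 ± 0.07 in each, adjusted p = 0.0364 in SW780 and 0.0414 in A549). JUN fell in A549 (-0.39 ± 0.09, adjusted p = 0.0126), and CEBPD rose in SW780 (0.35 ± 0.10, adjusted p = 0.0397). Against each control alone, EGR1 was called in both lines, while JUN in A549 and CEBPD in SW780 were called against siFFluc only. FOSL2 was called against siEGFP only in A549 and against siFFluc only in SW780.

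**Figure D5:**
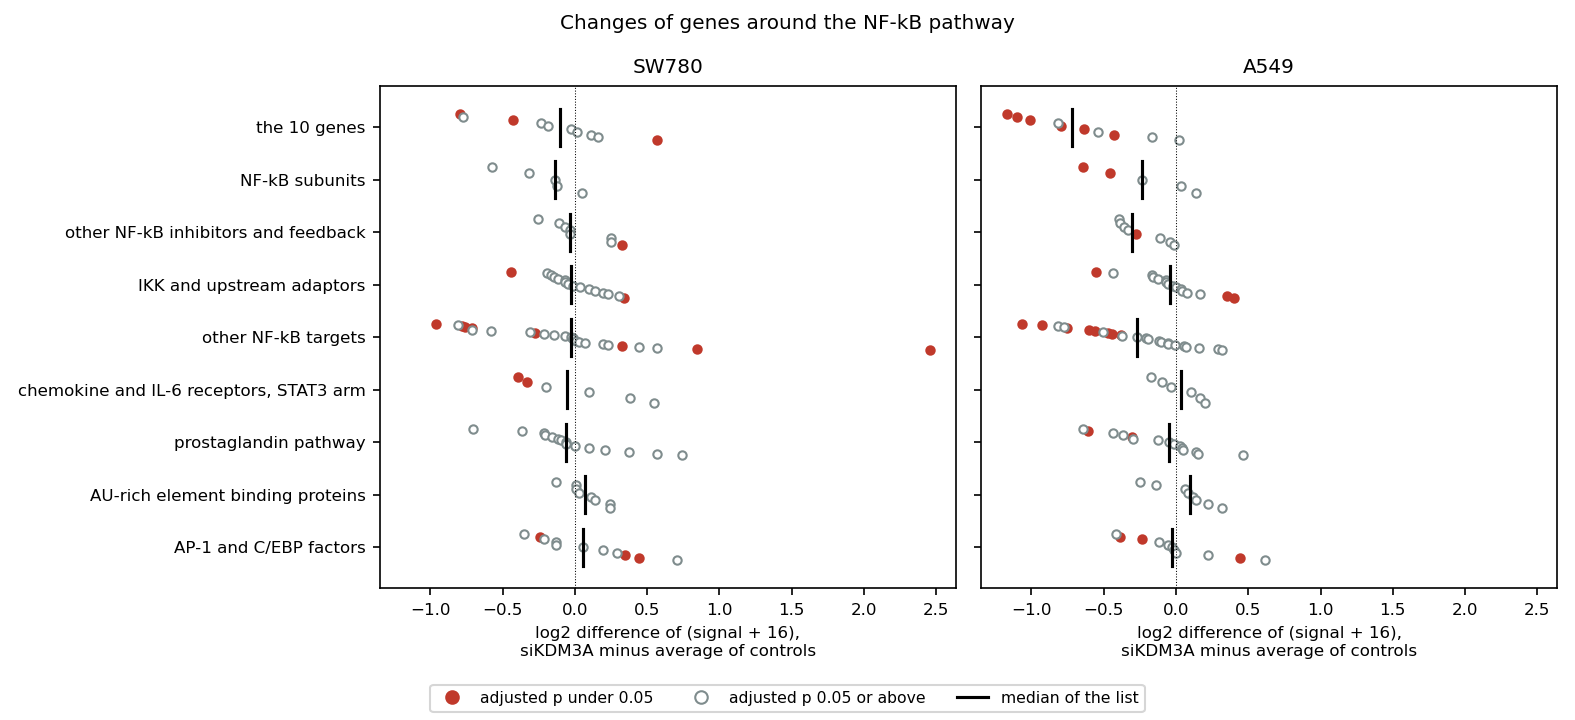
Difference of log2(signal + 16) between siKDM3A and the average of the controls (horizontal axis) for each tested gene of the lists, in SW780 and A549, red at an adjusted p under 0.05, with a black bar at the median of the list. In A549 the median of the 10 genes is -0.72 and that of the other NF-kB targets -0.27, and in SW780 they are -0.11 and -0.02.

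The 5 CXC chemokine genes stand in a stretch of 9 neighbouring protein-coding genes on chromosome 4, in the order CXCL8, CXCL6, PF4V1, CXCL1, PF4, PPBP, CXCL5, CXCL3 and CXCL2. CXCL6, PF4V1 and PPBP, which encode further chemokines of this family, were below the filter, with signals of at most 57.5 on any array. PF4, the platelet factor 4 gene, gave 27.4 to 62.8 in SW780 and 110.6 to 274.5 in A549.

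The genes whose pattern was most like that of CXCL8 were sought by Pearson correlation of log2 values over the 12 arrays, centred within each line, among 14056 other genes. These arrays form 6 groups of 2, so such values mostly follow the differences between siRNAs, and they are given as a description. The 5 highest were VEGFA (r = 0.957), which encodes an angiogenic growth factor, IL1RL1 (r = 0.937), a receptor gene of the interleukin-1 family, PTGS2 (r = 0.935), ETV6 (r = 0.932), an ETS factor gene, and PTGER4 (r = 0.923). CXCL3 stood at rank 8 (r = 0.915), TNFAIP3 at rank 114 (r = 0.808), CXCL2 at 831, IL6 at 840, CXCL1 at 1949, CXCL5 at 2408, NFKBIA at 3892 and CCL20 at 4789. Within the 6 A549 arrays alone the rank of IL6 was 4, of TNFAIP3 25, of PTGS2 29, of CXCL2 63, of CXCL3 174, of CXCL1 191, of CXCL5 718, of NFKBIA 1298 and of CCL20 4659. Within the 6 SW780 arrays alone the order was another one. There CXCL3 stood at rank 838, PTGS2 at 1261, CXCL2 at 2845 and CXCL5 at 4296, while TNFAIP3 (r = -0.05), CCL20 (r = -0.25), CXCL1 (r = -0.47), NFKBIA (r = -0.68) and IL6 (r = -0.71) had negative values.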

How the data were processed

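RNA of 12 samples was measured on Affymetrix expression arrays. Per the submitters' processing notes, the authors deposited MAS5 signal intensity values, one per probe set, with a software version not given in the sources used here. After leaving out 2% at each end, array means were 500.07 to 500.086, and no counts of reads underlie such arrays, so their number limits the precision. Of 54675 probe sets, 62 controls were left out, and the platform annotation gave 41091 of the others 1 gene symbol, 1801 several and 11721 none. Probe sets with a mean below the 40th percentile (a signal of 29.6) were left out, and each gene was read from its brightest probe set, which left 14057 genes. Tests used limma 3.58.1 in R 4.3.3 on log2(intensity + 16), with 6 groups in one fit and Benjamini-Hochberg adjustment over all genes, and were checked on simulated data.

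The members and the lists were chosen with earlier results of these data known. Named were KDM3A, the 10 members, up to 4 tested genes of smallest p per list and line, and the 5 genes most like CXCL8; genes below the filter and the chromosome 4 neighbours were named as listed there, and other exceptions are marked in the text. Alternatives were quantile normalization, median scaling, pseudocounts of 64 and 1, no filter, the mean of kept probe sets, a replicate block, arrays of the line alone, and leaving out each array. The siFFluc minus siEGFP difference between lines and the test of all kept probe sets were added after the data were seen.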

Additional observations from a re-analysis of the deposited data

Results flagged for a closer look

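The response to siKDM3A differed between SW780 and A549 for 4 of the 10 genes, beside 2.79% of all genes. Each was called by the test of the difference itself in the fit over both lines. All of these calls but that of IL6 ended when certain single arrays were left out. Those of CXCL3 and CXCL8 ended under median scaling too, and CXCL3 was dim in SW780. SW780 minus A549, on the log2 scale, was 1.36 for IL6 (0.57 in SW780 and -0.80 in A549), 1.02 for PTGS2 (0.01 and -1.01), 0.87 for CXCL3 (-0.23 and -1.10) and 0.74 for CXCL8 (-0.43 and -1.17), with adjusted p of 0.00691, 0.00938, 0.0336 and 0.0246 by limma. These changes are against the average of the controls. For CXCL8 the change against siEGFP alone was -0.65 in SW780 and -0.67 in A549, and against siFFluc alone -0.21 and -1.66. The difference between the control siRNAs also differed between the lines for CXCL8, where siFFluc minus siEGFP was -0.45 in SW780 and 1.00 in A549, a difference of -1.44 (adjusted p = 0.0149 by limma).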

How the results depend on the processing

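A tally of values under alternatives took in all members against the average of controls in each line. From the other comparisons it took only changes that were called without an alternative. Uncalled changes there that gained a call or turned sign are not in it. Within it, no called change of a member changed sign, and no alternative called a member the other way. Of its values, 903 kept their sign and side of the threshold, 138 lost a call and 12 gained one. The sign turned in 13, all of them uncalled. These were CCL20 in A549 (0.02, as low as -0.06) and in SW780 (0.11, as low as -0.22), and in SW780 CXCL1 (-0.03, as high as 0.31) and PTGS2 (0.01, as low as -0.09). In A549, CXCL3, CXCL8 and PTGS2 were called lower against the average of controls under every alternative run.

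Counts of called members moved as follows, and the causes were not tested. With arrays of the line alone, the count was 1 for SW780 against the average of controls (3 in the fit of both lines), 7 for A549 against siEGFP (3), 1 for SW780 against siEGFP (3), 0 for SW780 against siFFluc (1) and 0 for siFFluc minus siEGFP in SW780 (2). Median scaling gave 1 for SW780 against siEGFP, 2 for SW780 against siFFluc, 0 for siFFluc minus siEGFP in SW780, 2 for the response between lines (4) and 0 for siFFluc minus siEGFP between lines (1). A pseudocount of 64 gave 5 for A549 against siEGFP. For siFFluc minus siEGFP in SW780, quantile normalization, a pseudocount of 1 and no filter each gave 1. The mean of kept probe sets gave 2 for SW780 against siFFluc and 2 for siFFluc minus siEGFP between lines.

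Leaving out each array in turn, counts ran from 4 to 7 in A549 and 0 to 4 in SW780 against the average of controls, 1 to 4 in A549 and 0 to 3 in SW780 against siEGFP, and 5 to 8 in A549 and 1 to 3 in SW780 against siFFluc. They ran from 1 to 4 in A549 and 0 to 2 in SW780 for siFFluc minus siEGFP, from 1 to 5 for the response between lines, from 8 to 9 for control arrays between lines and from 0 to 1 for siFFluc minus siEGFP between lines.

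Groups share replicate numbers 1 and 2. Over all genes, dim and bright alike, deviations of same-numbered arrays were close to uncorrelated (correlations of -0.0309 to 0.0124). An effect that same-numbered arrays share in part of the genes was not tested this way. The replicate block gave 4 called members for siFFluc minus siEGFP in SW780, against 2 without it, and moved no other count by over 1.5 times.

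Median scaling moved the split over all genes in SW780 to 287 higher and 1257 lower (806 and 869 without it) against the average of controls, with a median of -0.07, to 143 and 695 (427 and 467) against siEGFP, to 449 and 1394 (983 and 1023) against siFFluc, and to 180 and 235 (431 and 372) for siFFluc minus siEGFP. In A549 it gave 1510 and 298 (526 and 607) against siEGFP and 1749 and 369 (626 and 784) against siFFluc. Between lines the response split 116 and 1825 (253 and 139).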
